A study of Homo sapiens with 6 samples.

Results

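Long noncoding RNAs (lncRNAs) of growth and senescence were examined in human fibroblasts that had entered mitosis with or without oncogenic Ras. They were 10 genes chosen by symbol, MALAT1, NEAT1, H19, MEG3, GAS5, SNHG1, SNHG5, PVT1, MIR31HG and CDKN2B-AS1, out of 63009 genes read from the deposited expression table. Each symbol had 1 row with 6 values. In brief, MIR31HG rose 3.30-fold and SNHG5 rose 1.34-fold in Ras-induced mitotic cells, the other 6 tested lncRNAs did not pass the test, and CDKN2B-AS1 and H19 were listed under the minimum level for testing.

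All 6 libraries came from ERRAS cells, which are IMR90 primary human fetal lung fibroblasts of early passage, retrovirally transduced with a tamoxifen-inducible ER:H-RasV12 and kept in G418 at 3% oxygen. The control mitotic cells (n = 3) carried the same construct but were left uninduced, and the Ras-induced mitotic cells (n = 3) had RasV12 switched on for 4 days. The sample labels give the inducer as 100 nM tamoxifen and the methods of the study as 100 ng/ml 4-hydroxytamoxifen. Both groups were arrested with 1 μM DME (dimethylenastron), an inhibitor of the kinesin Eg5, and only the detached mitotic cells were collected, so each value describes cells held in mitosis by a drug and not the whole culture. The transduced cells are not described as a clone, and the methods of the study state that the experiment was repeated independently, although no label ties a library to its repeat. In this bulk RNA, fewer cells of a type and less RNA per cell cannot be told apart.

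LncRNAs are transcripts without a long open reading frame, and many act as RNA. MALAT1 and NEAT1 are abundant nuclear RNAs transcribed from neighbouring genes, the first found in nuclear speckles and the second the scaffold of paraspeckles. H19 and MEG3 are imprinted, GAS5, SNHG1 and SNHG5 carry small nucleolar RNAs (snoRNAs) in their introns, PVT1 lies beside the MYC oncogene, and MIR31HG and CDKN2B-AS1 (ANRIL) lie near and within the CDKN2A-CDKN2B (INK4) locus of chromosome 9, whose products p16 and p15 hold cells in senescence.

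The sequences below are shown because the results turn on 2 groups of these genes, the pair at the ends of the INK4 stretch and the snoRNA hosts. They were taken from the RefSeq tables of the GRCh38.p14 build, which held a promoter window (250 bases before to 50 after the transcript start) for 8 of the 10 lncRNAs. For MIR31HG (chr9:21559749-21560048, minus strand) and CDKN2B-AS1 (chr9:21994541-21994840, plus strand) the whole window is printed 5′ to 3′, with each CG dinucleotide in capitals.
MIR31HG: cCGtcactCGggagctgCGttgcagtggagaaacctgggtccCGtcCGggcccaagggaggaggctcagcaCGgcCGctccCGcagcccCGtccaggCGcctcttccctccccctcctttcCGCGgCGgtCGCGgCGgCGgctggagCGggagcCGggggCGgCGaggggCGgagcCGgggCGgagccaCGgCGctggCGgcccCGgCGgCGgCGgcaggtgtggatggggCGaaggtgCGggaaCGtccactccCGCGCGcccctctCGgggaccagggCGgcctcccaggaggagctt
CDKN2B-AS1: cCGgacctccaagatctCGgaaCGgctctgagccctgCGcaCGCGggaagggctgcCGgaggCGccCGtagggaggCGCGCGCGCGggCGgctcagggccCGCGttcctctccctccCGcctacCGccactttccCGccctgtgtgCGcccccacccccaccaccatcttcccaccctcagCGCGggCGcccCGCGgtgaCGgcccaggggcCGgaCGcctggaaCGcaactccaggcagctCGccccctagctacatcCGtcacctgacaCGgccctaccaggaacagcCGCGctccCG
Both windows were rich in CG. MIR31HG had 39, a number reached by 8.71% of the 35116 windows in the table, and CDKN2B-AS1 had 36, reached by 12.7%, against a median of 14. Neither the motif TGANTCA (in 7.71% of windows, either strand) nor CACGTG (in 7.26%, either strand) occurred in a window of the 8 lncRNAs, which says only that these letters are not in these windows.

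MIR31HG is named for miR-31, which is encoded within it. The mature miR-31-5p (chr9:21512158-21512178, minus strand) is printed with its seed, bases 2 to 8, in capitals.
miR-31-5p: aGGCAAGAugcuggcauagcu
For the snoRNA hosts, 30 bases before and 30 after the RefSeq transcript start are printed, with the unbroken run of C or T that begins at the start in capitals. A C followed by such a run is the feature of mRNAs of the translation machinery known as a 5′ terminal oligopyrimidine (5′TOP) tract.
SNHG5 (chr6:85678704-85678763, minus strand): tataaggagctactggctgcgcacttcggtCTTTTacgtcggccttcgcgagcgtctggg
SNHG1 (chr11:62855856-62855915, minus strand): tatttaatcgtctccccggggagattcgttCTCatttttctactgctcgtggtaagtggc
GAS5 (chr1:173869016-173869075, minus strand): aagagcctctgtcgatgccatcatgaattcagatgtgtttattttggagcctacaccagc
The start of SNHG5 had a run of 5 pyrimidines, CTTTT, which opens the transcript in 0.356% of all windows. Runs of 5 or more occurred in 5.17% of windows. SNHG1 had 3 pyrimidines at its start and the GAS5 start listed in RefSeq had 0. The listed start may not be the one these cells use, and start sites were not measured here.

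Expression is given in FPKM, in which the fragments of a gene are divided by the length of its transcript and by the size of the library, so levels can be compared between polyadenylated RNAs. MALAT1 and the long form of NEAT1 lack a poly(A) tail, and their place among the levels also depends on how well the poly(A) selection captured them. Differences were tested with limma on log2(FPKM + 1) over the 13993 genes that averaged 1 FPKM or more, and a gene is called altered at an adjusted p of 0.05 or less. Read counts were not used here. Depth relative to the first control library, from the steps between low values, was 0.847 to 1.17 over the other 5 libraries. HRAS RNA, in which the transgene carried by both groups may be counted, averaged 1164 ± 20.3 FPKM in control cells, against 1586 ± 227 FPKM after induction (SD, n = 3 each). All 10 fibroblast markers averaged at least 1 FPKM, and 4 of them fell (DCN, LUM, COL1A2 and THY1), the summed level being 5673 to 6614 FPKM in control and 4047 to 5411 FPKM in Ras-induced libraries. Of 8 mitotic markers, PLK1, BUB1, CENPF and TOP2A fell, and the sum was 1633 to 1710 against 1350 to 1487 FPKM. Among all tested genes 5.67% fell. By microscopy the study scored the great majority of collected cells as mitotic in both groups. Of the epithelial markers 4 of 6 averaged at least 1 FPKM (summed 24.55 to 38.54 against 23.59 to 27.82 FPKM), as did 0 of 4 endothelial markers, where 1 was at 0 in all libraries, and 1 of 5 blood cell markers (CD68), where 2 were at 0. What part these shifts have in the lncRNA results was not tested.

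The lncRNAs covered a wide range of levels. In control cells SNHG5 was highest at 245.3 ± 15.7 FPKM and GAS5 next at 147.9 ± 18.6 (SD, n = 3 throughout), which placed their means over the 6 libraries at the 97.9th and 95.3rd percentile of tested genes. SNHG1, MEG3 and MALAT1 followed at 53.6, 45.0 and 38.7 FPKM, and their neighbours in this order overlapped between libraries. NEAT1, PVT1 and MIR31HG came next at 15.8, 11.2 and 7.33 FPKM, again with overlapping values between neighbours in the order. CDKN2B-AS1 averaged 0.458 FPKM, and H19 was listed at 0 in all 3 control libraries. After induction MIR31HG moved from rank 8 to rank 6, and its values then overlapped with those of MALAT1 and lay above all values of NEAT1. The neighbours in the order whose values overlapped in Ras-induced cells were MEG3 with SNHG1 and MALAT1 with MIR31HG.

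**Figure D1:**
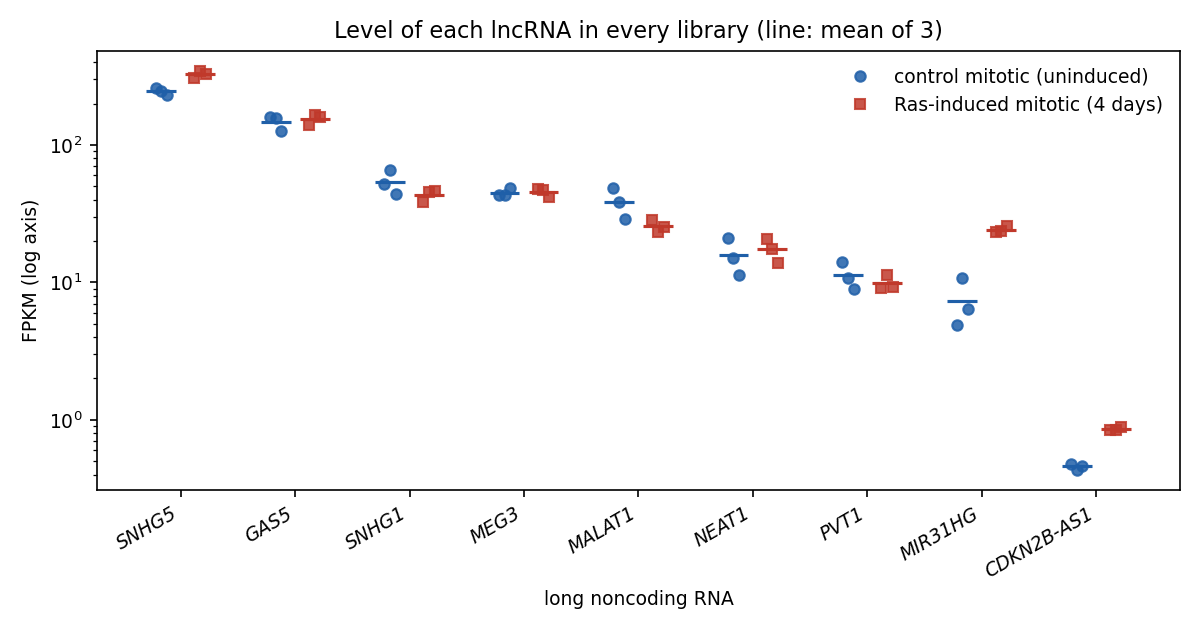
Expression of 9 lncRNAs in FPKM on a log axis, with 3 control mitotic (circles) and 3 Ras-induced mitotic (squares) libraries per gene and a line at each mean. MIR31HG, SNHG5 and CDKN2B-AS1 are higher in every Ras-induced library than in any control library, and MALAT1 is lower. H19, at 0 in 5 of the 6 libraries, is not drawn.

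Of the 8 tested lncRNAs, 2 were altered (SNHG5 and MIR31HG, both higher), where 16.7% of all tested genes and 11.3% of the 1005 tested lncRNA genes were altered. Among all tested genes 11.0% were altered upward and 5.67% downward, or 1543 and 793 genes. With quantile scaling this split was 1044 and 1109, and with a common upper quartile 921 and 1101. No lncRNA of the 8 was altered downward by limma, and 1 (MALAT1) was lower at an unadjusted p under 0.05. The groups did not overlap for 3 of the 8 (SNHG5, MIR31HG and MALAT1), against 39.9% of all tested genes and 30.9% of tested lncRNA genes. The median log2 difference of the 8 was 0.04, against 0.10 over all tested genes and 0.08 over tested lncRNA genes. Counts this small, beside these shares, give no result about the lncRNAs as a group, and each is described singly below.

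**Figure D2:**
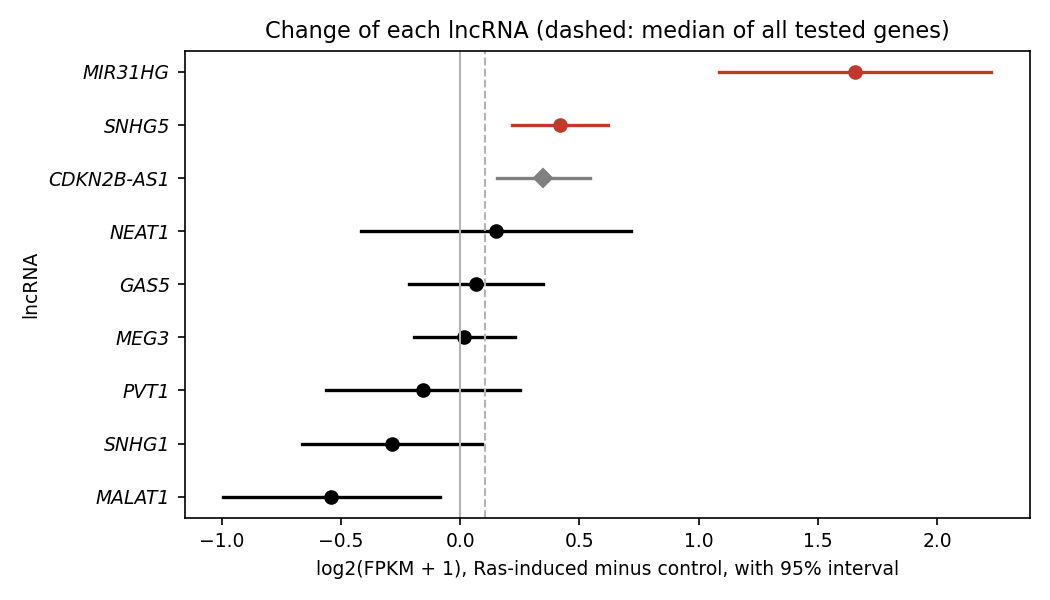
Difference in log2(FPKM + 1), Ras-induced minus control, with its 95% interval from limma for each tested lncRNA. Red marks the 2 altered lncRNAs, the grey diamond is CDKN2B-AS1 from the fit without a filter on low values, and the dashed line is the median of all tested genes (0.10). The interval of MALAT1 lies below 0 although its adjusted p is 0.0998.

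MIR31HG (MIR31 host gene, ENSG00000171889) is a multi-exon lncRNA that has been linked to repression of p16 in fibroblasts. Its level was 4.91, 10.7 and 6.39 FPKM in the control libraries and 23.2, 23.8 and 25.7 FPKM in the Ras-induced libraries. Every Ras-induced value was more than any control value, and the control libraries varied far more among themselves, with a coefficient of variation of 41.0% against 5.55%. The mean rose from 7.33 ± 3.01 to 24.2 ± 1.35 FPKM (SD, n = 3 each), a log2(FPKM + 1) difference of 1.66 (SE 0.24, 95% interval 1.08 to 2.23, limma adjusted p = 0.00820). It passed the threshold under all 13 alternatives tried. The precursor entry MIR31, whose mature form is printed above, was listed at 0 in all 6 libraries. Small RNAs of this length are not captured reliably by a library of long poly(A) RNA, so this value carries no information on miR-31 itself.

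In the GRCh37 build, MIR31HG spans chr9:21380072-21559890 on the minus strand, and 12.4% of its exonic bases are shared with genes on the opposite strand, which this unstranded library cannot tell apart. Those genes are interferon genes and pseudogenes, among them IFNWP19, which shares 461 bases with MIR31HG exons. IFNWP19 averaged 2.70 ± 0.916 FPKM in control and 9.17 ± 1.29 FPKM in Ras-induced cells, with a log2 difference of 1.48 (SE 0.20, adjusted p = 0.00654). Since the reads of the pair cannot be assigned to a strand, IFNWP19 is not counted as a separate change. The 4 coding interferon genes inside the span were too low to be tested, and the highest of them, IFNE, averaged 0.136 FPKM in control and 0.327 FPKM in Ras-induced cells. The 3 tested genes whose values followed MIR31HG most closely over the 6 libraries were ZNHIT2 (Pearson r = 0.9946), COQ9 (0.9938) and PARP4P2 (0.9937). Of these COQ9, which serves coenzyme Q synthesis, passed the test (18.7 to 24.1 FPKM, adjusted p = 0.0340) and the others did not. With 2 groups of 3 libraries, such values of r include the difference between the groups.

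CDKN2B-AS1 (ENSG00000240498) is transcribed from the INK4 locus in the opposite direction to CDKN2A and CDKN2B and is known as a partner of polycomb proteins there. It was listed at 0.478, 0.435 and 0.463 FPKM in control and at 0.840, 0.842 and 0.887 FPKM in Ras-induced cells. The groups did not overlap, and both were tight. The mean went from 0.458 ± 0.0219 to 0.856 ± 0.0266 FPKM (SD, n = 3 each), a ratio of 1.87. Its overall mean of 0.657 FPKM lay under the minimum of 1 FPKM for testing. The two-sided exact permutation p was 0.1, the smallest that 3 libraries against 3 allow, and in a fit of the 29362 genes with any value above 0 the log2 difference was 0.35 (SE 0.08) with an adjusted p of 0.0726, where 5.17% of genes were altered. At these levels the log2(FPKM + 1) scale understates the change: with a pseudocount of 0.1 the difference was 0.78. GENCODE places it at chr9:21994138-22128102 (GRCh37, plus strand), sharing 593 exonic bases with CDKN2A on the opposite strand, while CDKN2B lies within its span without exonic overlap.

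The 2 lncRNAs mark the ends of a stretch of 748.0 kb that holds 27 genes of the table, a stretch chosen after the values were seen. Of these, 9 were at 0 in all 6 libraries and 5 were tested. All 5 were altered upward, or 4 without IFNWP19, whose reads cannot be told apart from those of MIR31HG, where 11.0% of tested genes were altered upward. CDKN2B, which encodes the CDK4/6 inhibitor p15, had 3.18, 1.59 and 2.16 FPKM in control and 23.3, 16.6 and 16.1 FPKM in Ras-induced cells. That was the largest change of the stretch on the log2 scale, at 2.58 (SE 0.22, adjusted p = 0.00212). CDKN2A, which encodes p16 and ARF, rose from 8.95 ± 0.306 to 16.4 ± 0.979 FPKM (adjusted p = 0.00368). MTAP, an enzyme of methionine salvage, rose from 17.9 ± 1.42 to 34.7 ± 3.84 FPKM (adjusted p = 0.00449). The remaining tested genes were MIR31HG and IFNWP19. Genes of the stretch outside the test averaged at most 0.657 FPKM, the value of CDKN2B-AS1 itself. On the CDKN2A-CDKN2B side, sharing of reads between CDKN2A and CDKN2B-AS1 over their common exonic bases cannot be told apart in either direction.

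**Figure D3:**
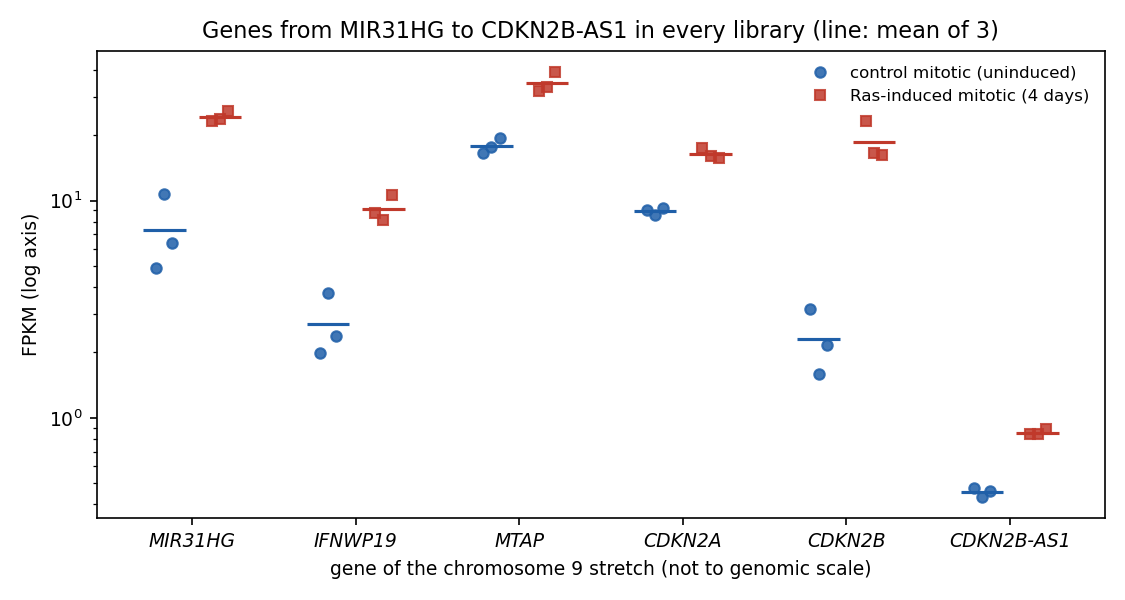
FPKM on a log axis of the 5 tested genes of the chromosome 9 stretch and of CDKN2B-AS1, with 3 control mitotic (circles) and 3 Ras-induced mitotic (squares) libraries and a line at each mean. Every Ras-induced value lies above every control value in all 6 genes, and the step is largest for CDKN2B.

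The genes of this stretch did not rise by equal amounts. Within each library the ratio of CDKN2B-AS1 to CDKN2B was 0.150, 0.274 and 0.215 in control and 0.0361, 0.0507 and 0.0549 in Ras-induced cells. The ratio of MIR31HG to MTAP was 0.297, 0.607 and 0.330 in control and 0.728, 0.717 and 0.659 in Ras-induced cells. Thus the antisense RNA fell relative to CDKN2B while MIR31HG gained on MTAP, in libraries that did not overlap. MIR31HG relative to CDKN2B-AS1 was 10.3, 24.6 and 13.8 against 27.6, 28.2 and 29.0. For each of these ratios the exact two-sided permutation p was 0.1, the smallest possible, and the ratios were chosen after the values were seen.

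The list of INK4 locus genes and their polycomb and chromatin regulators held 14 tested genes, of which 5 rose and 1 fell, where 11.0% of all tested genes rose and 5.67% fell, with a median log2 difference of 0.25 against 0.10 for all tested genes. Of the rises, 3 were CDKN2B, MTAP and CDKN2A, already counted in the stretch above. The other rises were CBX8, a chromodomain protein of polycomb complex 1 (0.477 to 1.89 FPKM, adjusted p = 0.0354), which reached the minimum of 1 FPKM only through its Ras-induced values, and KDM6B, which removes the polycomb mark H3K27me3 (4.51 to 7.10 FPKM, adjusted p = 0.0359, above the threshold with either of the other scalings). The fall was EZH2, the methyltransferase that writes the mark. It had 56.2, 56.5 and 59.5 FPKM in control and 23.1, 28.4 and 22.7 FPKM in Ras-induced cells, a log2 difference of -1.19 (SE 0.10, adjusted p = 0.00219). CBX7, another chromodomain protein reported as a partner of CDKN2B-AS1, went from 1.49 ± 0.755 to 0.664 ± 0.337 FPKM with overlapping libraries (adjusted p = 0.251), and BMI1 was at 31.8 and 36.8 FPKM (adjusted p = 0.232).

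The snoRNA host lncRNAs did not move as one. Each is spliced from a precursor whose introns yield snoRNAs, and the spliced RNA of several is removed by nonsense-mediated decay when it is translated. SNHG5 (ENSG00000203875, chr6:86360209-86388650 in GRCh37, minus strand) was at 260.3, 246.5 and 229.1 FPKM in control and at 307.1, 346.9 and 330.6 FPKM in Ras-induced cells. The groups did not overlap and the spread within each was about 6% of its mean, 6.39% and 6.09%. Its log2 difference was 0.42 (SE 0.08, 95% interval 0.22 to 0.62, limma adjusted p = 0.0210). With fewer libraries in the fit, the adjusted p was 0.0723 without the second control library, 0.0548 without the second Ras-induced library and 0.0804 without the third, while the log2 difference stayed at 0.42, 0.38 and 0.41. With all libraries but no filter on low values, limma gave an adjusted p of 0.0507. SNHG5 shares 13.2% of its exonic bases with other annotated genes on its own strand. Its coding neighbour SYNCRIP, an RNA-binding protein, stood at 153.5 ± 2.20 and 155.7 ± 2.73 FPKM (adjusted p = 0.852).

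GAS5 (growth arrest-specific 5, ENSG00000234741) was first found as an RNA that accumulates when growth stops, and it can bind the glucocorticoid receptor. It measured 159.1, 158.2 and 126.4 FPKM in control and 139.9, 164.5 and 159.2 FPKM in Ras-induced cells. The libraries overlapped almost entirely. The log2 difference was 0.07 (SE 0.12, adjusted p = 0.724), with a 95% interval of -0.21 to 0.35. GAS5 lies at chr1:173827697-173838020 (GRCh37, minus strand) and shares 7.7% of its exonic bases with genes on the opposite strand. None of the 9 tested genes within 500 kb was altered by limma, with 1 at an unadjusted p under 0.05. With 16.7% of all tested genes altered, so small a count says little. Of 5 tested genes among the glucocorticoid receptor and its targets, SGK1 rose (11.9 ± 3.10 to 21.2 ± 3.81 FPKM, adjusted p = 0.0482), but it missed the threshold with either of the other scalings. The others were not altered. Among all tested genes 11.0% rose, so 1 of 5 is no result about the list.

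SNHG1 (ENSG00000255717, chr11:62619450-62623425, GRCh37, minus strand) had 51.7, 65.3 and 43.7 FPKM in control and 38.2, 45.7 and 46.2 FPKM in Ras-induced cells. The third control library lay among the Ras-induced values. Its log2 difference was -0.29 (SE 0.16, 95% interval -0.66 to 0.09, adjusted p = 0.256). SLC3A2, an amino acid transporter subunit whose gene begins 51 bases from that of SNHG1 and runs the other way, was at 145.3 ± 40.5 FPKM in control and 143.4 ± 14.4 FPKM in Ras-induced cells and was not altered (adjusted p = 0.975). On the other side, 10169 bases away, the ribosome assembly factor WDR74 went from 19.1 ± 1.27 to 26.6 ± 2.57 FPKM and was altered (log2 difference 0.46, adjusted p = 0.0268), but not with either of the other scalings. Of the 28 tested genes within 500 kb of SNHG1, 3 rose, a share near the 11.0% of all tested genes.

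Within a library, the 3 snoRNA hosts shifted against each other. SNHG5 relative to GAS5 was 1.64, 1.56 and 1.81 in control and 2.19, 2.11 and 2.08 in Ras-induced cells. SNHG1 relative to GAS5 was 0.325, 0.413 and 0.346 against 0.273, 0.278 and 0.290. Neither ratio overlapped between the groups, and SNHG5 relative to SNHG1 showed the widest gap, at 5.03, 3.77 and 5.24 in control and 8.05, 7.59 and 7.15 in Ras-induced cells. Each had an exact two-sided permutation p of 0.1, the smallest possible, and these ratios too were chosen after the values were seen. MEG3 relative to GAS5 overlapped between the groups (0.272 to 0.382 against 0.263 to 0.341, exact permutation p = 0.8). A ratio within a library does not depend on a single factor by which the library is scaled, although quantile scaling can move it. It shows unequal change, not which of the pair changed.

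**Figure D4:**
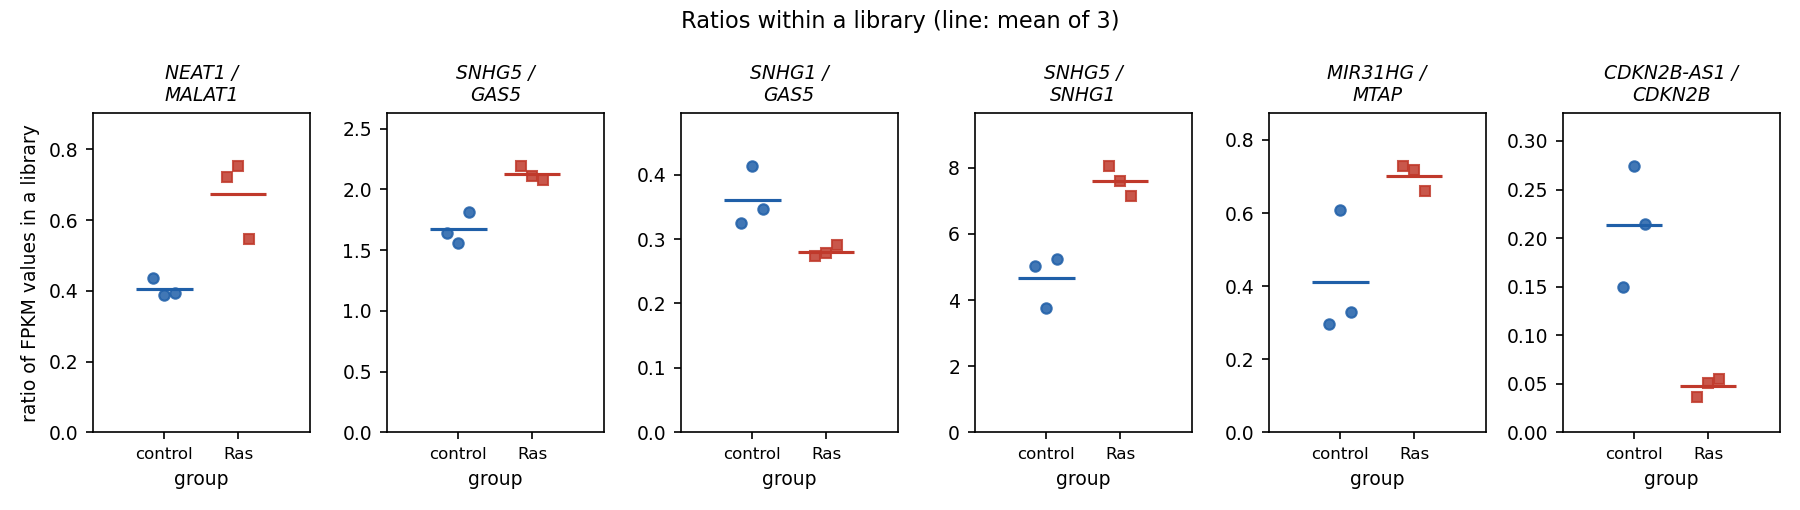
Ratio of 2 FPKM values from the same library for 6 of the 9 pairs of genes compared, chosen after the values were seen because their groups were apart, on linear axes that start at 0, for 3 control mitotic (circles) and 3 Ras-induced mitotic (squares) libraries with a line at each mean. In each panel the 2 groups do not overlap, for example 0.388 to 0.435 against 0.547 to 0.752 for NEAT1 relative to MALAT1.

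Over the wider family, 3 of the 21 tested snoRNA host lncRNAs were altered and all 3 rose, a share near the 16.7% of all tested genes and the 11.3% of tested lncRNA genes that were altered, with a median log2 difference of 0.16 against 0.10 for all tested genes. The largest was DANCR, which represses differentiation of progenitor cells, at 18.1, 20.6 and 13.9 FPKM in control and 33.0, 42.9 and 32.8 FPKM in Ras-induced cells (log2 difference 1.01, SE 0.17, adjusted p = 0.0124). SNHG8 followed at 31.5, 25.1 and 22.7 against 45.3, 58.2 and 48.1 FPKM (0.92, SE 0.15, adjusted p = 0.0112). Both changed by more than SNHG5, and their groups did not overlap. At the other end, SNHG19 went from 8.19 ± 1.10 to 5.36 ± 1.08 FPKM with groups apart, yet missed the threshold (adjusted p = 0.0656). No host was altered downward by limma, and SNHG19 was the 1 host lower at an unadjusted p under 0.05.

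**Figure D5:**
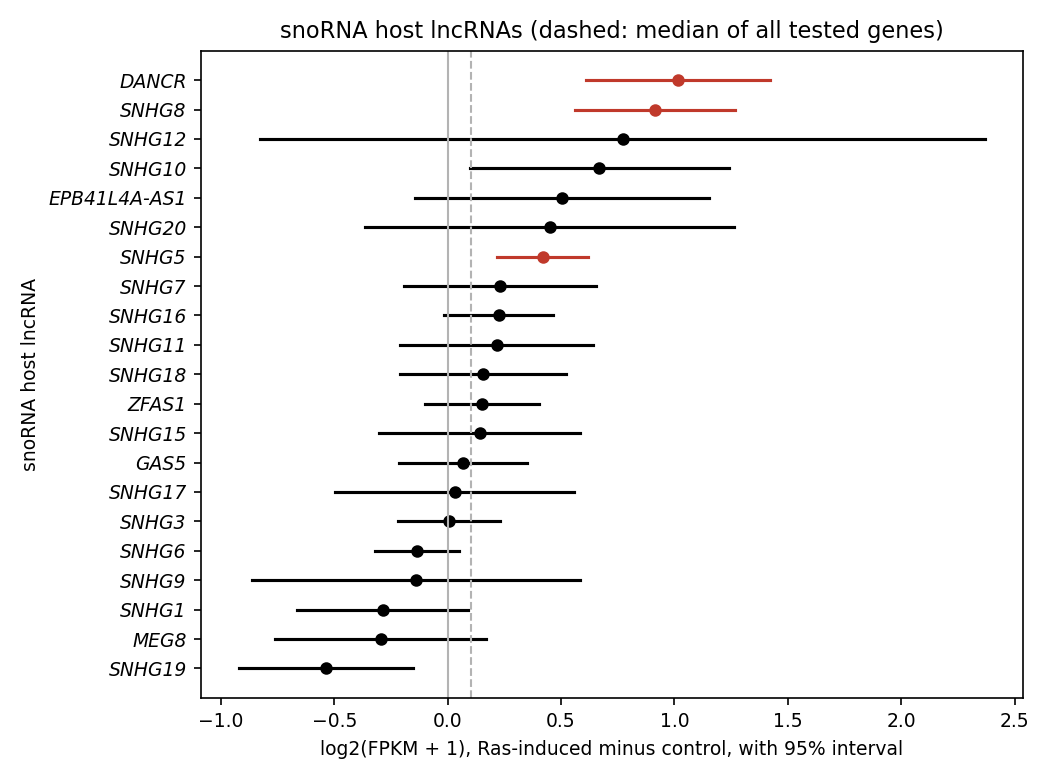
Difference in log2(FPKM + 1), Ras-induced minus control, with its 95% interval from limma for the 21 tested snoRNA host lncRNAs. Red marks the 3 altered hosts (DANCR, SNHG8 and SNHG5), and the dashed line is the median of all tested genes (0.10). The estimates run from -0.54 for SNHG19 to 1.01 for DANCR.

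The snoRNAs themselves could not be followed. All 13 listed entries for snoRNAs in the introns of GAS5 and SNHG1 were at 0 in all 6 libraries, a value that says nothing of their level. A library of long poly(A) RNA does not capture such short RNAs reliably, and a 0 can also be a failed estimate. Of the 22 tested mRNAs of the 5′TOP class, a class to which several of these hosts are known to belong, 2 were altered, EIF3E (161.5 to 208.7 FPKM, adjusted p = 0.0354) and NACA (668.8 to 839.1 FPKM, adjusted p = 0.0483), both lost with a common upper quartile. That is a smaller share than the 16.7% of all tested genes, and the median log2 difference of the 22 was 0.17 against 0.10. Of 16 tested nonsense-mediated decay factors 1 was altered, again a smaller share than 16.7%, and this was SMG6, an endonuclease of the pathway (40.5 ± 3.84 to 57.6 ± 1.77 FPKM, adjusted p = 0.0147), and UPF1, its central helicase, was at 38.5 and 33.7 FPKM (adjusted p = 0.201).

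MALAT1 (ENSG00000251562, chr11:65265111-65275544, GRCh37, plus strand) was the only tested lncRNA of the 10 whose Ras-induced values were all lower. It had 48.7, 38.5 and 28.7 FPKM in control and 28.7, 23.3 and 25.3 FPKM in Ras-induced cells. The groups were apart only by the gap between the third control library (28.74) and the first Ras-induced library (28.65). The mean was 38.7 FPKM against 25.8 FPKM, with coefficients of variation of 25.9% and 10.4%. The log2 difference was -0.54 (SE 0.19, 95% interval -0.995 to -0.087), with an adjusted p of 0.0998 from limma. Without the third control library the difference was -0.73 and passed the threshold (adjusted p = 0.0262). TALAM1 on the opposite strand covers 77.8% of the MALAT1 exon, and its reads cannot be told apart here. MALAT1 RNA ends in a processed structure and not a poly(A) tail, so its capture by oligo-dT is by internal A-rich sequence. The genes most alike to MALAT1 over the 6 libraries were NR1D2 (Pearson r = 0.9991), a nuclear receptor of the circadian clock, STS (0.9982) and RP11-383H13.1 (0.9940). None of these passed the test. NR1D2 had 24.1, 18.7 and 13.5 FPKM in control and 13.3, 11.0 and 11.7 FPKM in Ras-induced cells, and within each group its libraries stood in the same order as for MALAT1.

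NEAT1 (ENSG00000245532, chr11:65190245-65213011, GRCh37, plus strand) was not altered. Its values were 21.2, 14.9 and 11.4 FPKM in control and 20.7, 17.5 and 13.8 FPKM in Ras-induced cells. The 2 groups covered nearly the same range. The log2 difference was 0.15 (SE 0.24, adjusted p = 0.695), and its 95% interval, -0.42 to 0.72, leaves room for a moderate change in either direction. Within each library, NEAT1 relative to MALAT1 was 0.435, 0.388 and 0.395 in control and 0.721, 0.752 and 0.547 in Ras-induced cells, without overlap (exact permutation p = 0.1, the smallest possible), a ratio chosen after the values were seen. The intervals of the 2 log2 differences overlap, and MALAT1 did not pass the test either. The value combines the short and long forms of NEAT1, of which the long form builds the paraspeckle and ends without a poly(A) tail.

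Genes for proteins found in the 2 nuclear bodies were examined next, against the 16.7% of all tested genes that were altered. Of 18 tested genes for paraspeckle proteins 1 was altered, HNRNPR, which fell from 166.5 ± 10.7 to 124.9 ± 8.08 FPKM (adjusted p = 0.0229). The core proteins NONO and SFPQ were at 280.2 and 282.8 FPKM in control and at 268.5 and 266.6 FPKM in Ras-induced cells (adjusted p = 0.580 and 0.595). Of 14 tested genes for nuclear speckle proteins 1 was altered, as the splicing factor SRSF5 rose (75.1 ± 3.05 to 94.4 ± 4.92 FPKM, adjusted p = 0.0320, lost with a common upper quartile). The coding genes FRMD8 and LTBP3, neighbours of the NEAT1-MALAT1 pair, were not altered (adjusted p = 0.530 and 0.410). Within 500 kb of MALAT1, 8 of 46 tested genes were altered, 3 higher and 5 lower, a share near the 16.7% of all tested genes.

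MEG3 (ENSG00000214548, chr14:101245747-101327368, GRCh37, plus strand), the maternally expressed RNA of the DLK1-MEG3 imprinted domain, showed no difference beyond the spread of its libraries. It measured 43.3, 43.4 and 48.4 FPKM in control and 47.7, 47.2 and 41.8 FPKM in Ras-induced cells. The groups overlapped, with coefficients of variation of 6.43% and 7.21%. The log2 difference was 0.02 (SE 0.09, adjusted p = 0.915), with an interval of -0.19 to 0.23, and its sign turned with quantile scaling (-0.09) and with a common upper quartile (-0.09). DLK1, the paternally expressed coding gene of the domain, was near 0 (0.424 and 0.128 FPKM) and was not tested. Of 14 tested genes within 500 kb of MEG3, 2 fell, SLC25A29 and RP11-638I2.6, where 5.67% of all tested genes fell and 16.7% were altered. The 2 overlap each other on opposite strands at the far edge of that window and so cannot be told apart. Small RNA entries at 0 in 5 libraries, such as MIR655 and SNORD113, are among the 14.

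H19 (ENSG00000130600, chr11:2016396-2025782, GRCh37, minus strand), the maternally expressed RNA that carries miR-675, was listed at 0 in 5 libraries and at 0.0338 FPKM in the first Ras-induced library. A 0 in this table can also be a failed estimate, so these values set no upper limit on H19, and no difference could be tested. IGF2, its paternally expressed neighbour and a fetal growth factor, was at 140.7, 102.7 and 80.2 FPKM in control and 88.8, 86.3 and 44.8 FPKM in Ras-induced cells. The IGF2 groups overlapped and it was not altered (log2 difference -0.58, SE 0.31, adjusted p = 0.244). Of 12 tested genes within 500 kb of H19, limma altered 0, with 1 at an unadjusted p under 0.05. With 16.7% of all tested genes altered, so small a count says little.

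Of 18 tested genes on a list of imprinted growth genes and their partners, 4 rose, 1 fell and 13 were not altered, where 11.0% of all tested genes rose and 5.67% fell, and their median log2 difference was 0.01 against 0.10. The 3 altered genes that are themselves imprinted were DIRAS3, MEST and PHLDA2. DIRAS3, a Ras-related GTPase that restrains growth, rose from 1.62, 6.0 and 3.96 FPKM to 14.8, 47.9 and 27.0 FPKM (log2 difference 2.63, SE 0.49, adjusted p = 0.0169). MEST fell from 8.54, 11.9 and 17.1 FPKM to 2.49, 2.81 and 1.03 FPKM (-2.12, SE 0.32, adjusted p = 0.00898). PHLDA2, which limits placental growth, rose from 81.3 ± 10.1 to 195.8 ± 22.4 FPKM (1.26, SE 0.12, adjusted p = 0.00291). The list also held the IGF2 mRNA-binding proteins, which are not imprinted themselves, and of these IGF2BP2 (36.5 to 59.2 FPKM, adjusted p = 0.0480) and IGF2BP3 (45.4 to 67.9 FPKM, adjusted p = 0.0331) rose, although both missed the threshold with either of the other scalings.

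PVT1 (ENSG00000249859), which lies beside MYC on chromosome 8 and is often amplified with it, had 14.0, 10.8 and 8.94 FPKM in control and 9.12, 11.3 and 9.19 FPKM in Ras-induced cells. The groups overlapped. Its log2 difference was -0.16 (SE 0.17, 95% interval -0.56 to 0.25, adjusted p = 0.559). MYC had 9.53, 10.03 and 11.7 FPKM in control and 6.98, 5.51 and 8.70 FPKM in Ras-induced cells. The MYC groups were apart, but the adjusted p was 0.0780 (log2 difference -0.52, SE 0.17). The ratio of PVT1 to MYC overlapped between the groups (0.763 to 1.47 against 1.06 to 2.05, exact permutation p = 0.5).

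Among 24 further tested lncRNAs of growth and stress, 2 rose and 1 fell, a share near the 11.3% of tested lncRNA genes that were altered. MIR210HG, the host of the hypoxia miRNA miR-210, rose from 1.10, 1.19 and 2.37 FPKM to 8.29, 3.41 and 5.90 FPKM (log2 difference 1.40, SE 0.32, adjusted p = 0.0309). TP53TG1, a p53-responsive lncRNA, rose from 16.0 ± 1.78 to 34.4 ± 8.26 FPKM (1.04, SE 0.17, adjusted p = 0.0123). TUG1 fell from 43.3, 43.3 and 45.4 FPKM to 37.7, 29.3 and 30.6 FPKM (-0.43, SE 0.11, adjusted p = 0.0405). On this scale MIR31HG changed by more than any of these 3, and TUG1 by about as much as SNHG5 in the opposite direction. HOTAIR, which binds polycomb complex 2, was listed at 0 in all 6 libraries.

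Across the context lists together, each gene counted once, 24 of 175 tested genes were altered, 20 higher and 4 lower, with a median log2 difference of 0.08. That is a smaller share than the 16.7% of all tested genes.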

How the data were processed

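Gene expression was measured by RNA-seq of poly(A) RNA in 6 libraries, 3 control mitotic and 3 Ras-induced mitotic. Per the labels and the methods of the study, libraries were made with an unstranded TruSeq kit, trimmed with Trim Galore 0.3.0 and aligned with TopHat2 to hg19, guided by Ensembl build 73 splice junctions. The authors computed FPKM per gene with Cufflinks and deposited 1 table. Its columns give the group and a number but not the sample. The 18 columns without a name and the 120 of 63129 genes with more than 6 values were left out. A deposited Cuffdiff comparison holds fold changes and p-values of the authors and was not used.

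Since FPKM values are no counts, a linear model was used. Two-sided tests were made by limma 3.58.1 (R 4.3.3; lmFit, then eBayes with trend) on log2(FPKM + 1) for genes that averaged 1 FPKM or more, with Benjamini-Hochberg adjustment over 13993 genes. Fold changes on this scale understate the change of low genes. A repeated symbol would have been read from its row with the highest mean. Positions and overlaps are from GENCODE 44 lifted to GRCh37, and sequences from RefSeq on GRCh38.p14. In data simulated on 13993 genes for the comparison of induced and uninduced cells, 66 of 100 genes changed by 1 (log2) and 97 of 100 changed by 2 were recovered. In all, 6 unchanged genes were called. Only 200 genes were changed there, a smaller share than the 16.7% altered in the data, so this recovery does not carry over directly. The absolute depth is not given in the sources used here. Tables and figures were made in matplotlib 3.10.9, scipy 1.17.1, numpy 2.4.6 and pandas 2.3.3 under Python 3.11.15.

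The lncRNAs and the context lists were chosen with earlier results of these data known. All 10 lncRNAs are named, with up to 6 altered genes of each list (largest change first), the coding neighbours, the 3 genes most alike to each of the 2 lncRNAs with the largest change, and the small RNAs carried inside them. Other genes given with values (HRAS, NONO, SFPQ, UPF1, CBX7, BMI1, HOTAIR, SNHG19, IFNWP19) were picked after their values were seen. Alternatives were a pseudocount of 0.1, other filters, 2 scalings, no trend, a replicate block, a minimum log2 change and each library left out. Some neighbouring genes are not reported here.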

Additional observations from a re-analysis of the deposited data

How the results depend on the processing

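MIR31HG stayed altered under all 13 alternatives (log2 difference 1.44 to 1.93, adjusted p 0.00445 to 0.0350), and SNHG5 under 9 of 13 (adjusted p 0.00868 to 0.0804). MALAT1 was lower under all 13 (-0.73 to -0.36) and altered under 1 (adjusted p 0.0262 to 0.220). The sign of MEG3, GAS5, NEAT1 and PVT1 held under 7, 11, 12 and 12 of 13. Without a filter on low values 1 of the lncRNAs (MIR31HG), 13 genes of the context lists and 1518 of all genes were altered, 29362 genes being tested; with a log2 change of at least 1 also required, 1 lncRNA (MIR31HG) and 548 genes. Leaving out each library in turn gave 1 to 3 altered lncRNAs, 3 to 4 whose groups did not overlap (GAS5 added without the first Ras-induced library, SNHG1 without the third control library), 10 to 19 genes of the lists (10 without the second control or the third Ras-induced library) and 998 to 1956 of all genes (998 without the third Ras-induced library), with fewer libraries in each fit. Of the 25 altered lncRNAs and list genes, all 25 kept their direction under quantile scaling and a common upper quartile, and 20 and 17 stayed altered. Both scalings added SNHG1 to those that did not overlap. The share of all genes that did not overlap is not given for the scalings or the leave-out fits. Fewer libraries also make such separation easier. For GAS5 the gap was 159.2 against 159.1 FPKM. Same-numbered libraries did not deviate together (correlations -0.003, 0.043 and 0.048), so the numbers were not taken as pairs. A replicate block gave 2310 altered genes and the same 2 lncRNAs. Summing rows of a repeated symbol changed nothing, since each lncRNA has 1 row. FPKM values without counts give no counting error, which limits CDKN2B-AS1 and H19 most.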

Other observations

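Some lncRNAs and other noncoding RNAs were high in only 1 library, and they were picked after their values were seen. MIR22HG, the host of miR-22, had 4.42, 100.2 and 2.18 FPKM in control and 6.10, 2.76 and 4.46 FPKM in Ras-induced cells. RN7SL1 and RN7SL2, copies of the signal recognition particle RNA that share sequence, were at 153.8 and 193.8 FPKM in the third Ras-induced library, and at 18.5 to 49.8 and 15.8 to 42.3 FPKM in the other 5. RNY1 was at 36.3 FPKM in the second control library and listed at 0 elsewhere. LINC-PINT, a p53-induced lncRNA, had 2.36, 1.38 and 0.741 FPKM in control and 5.78, 4.38 and 2.80 FPKM in Ras-induced cells, without overlap, and narrowly missed the threshold (limma adjusted p = 0.0550).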
